A study of Mus musculus with 2 samples.

Results

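The replication-dependent histone genes encode the bulk of the histone proteins that package newly copied DNA. They were taken as every gene whose symbol begins with Hist1h, Hist2h, Hist3h or Hist4h and that has a protein-coding transcript. This gave 67 genes of the 55536 genes in the tables, or of 22028 protein-coding genes: 6 for the linker histone H1, 18 for H2A, 18 for H2B, 12 for H3 and 13 for H4. The other 3 genes with such a symbol, Hist3h2bb-ps, Hist1h2aj and Hist1h2al, are annotated as pseudogenes and were not members. Of the members, 54 lie in the Hist1 cluster on chromosome 13, 10 in Hist2 on chromosome 3, 2 in Hist3 on chromosome 11 and 1, Hist4h4, on chromosome 6.

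The tissue was left cerebral cortex, and total RNA was prepared from 2 male mice aged 36 days, with no treatment named in the labels, both of strain B6CASTF1/J, the F1 hybrid of the B6 laboratory strain and the wild-derived CAST strain. The labels number them as biological replicates 1 and 2, describe them as males 03 and 04, and give both the same donor identifier. Each mouse gave 1 library from 300 ng of RNA, with spike-in RNAs and with ribosomal RNA reduced, so RNAs without a poly(A) tail could be sequenced. With 1 group and 2 mice there is no comparison between conditions and no test was made. Differences between the mice are described beside those of all protein-coding genes. The assembly named is mm10. How well reads from CAST alleles were assigned was not tested.

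Histone octamers hold H2A, H2B, H3 and H4, and H1 binds the linker DNA between them. The mRNAs of these genes lack introns as a rule and end in a conserved stem-loop instead of a poly(A) tail. The stem-loop is bound by SLBP and cleaved with the help of the U7 small nuclear RNP. Transcription rises in S phase through NPAT and falls afterwards, while replication-independent variants such as H3.3 and H2A.Z come from other, polyadenylated mRNAs made in resting cells as well. Most cells of the adult cortex are postmitotic, with oligodendrocyte precursors the main dividing population.

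The 3′ stem-loop is shown first because it is the sequence the members share beyond their protein. The M21 protein-coding transcripts were searched over their full length, coding sequence included, for a 6-base stem beginning GG around a 4-base loop beginning TT. It was found in 44 of the 67 members and in 130 of 21901 protein-coding genes (0.594%). The 86 non-members among these included H2afx, which is placed below in the list of replication-independent variants. Members without it include the 13 whose model holds the coding sequence alone, so a missing match says only that these letters are not in the model. Capitals mark the stem and lower case the loop, written as DNA and named by the histone classes that carried it.
H1, H2A, H2B and H3 (26 members): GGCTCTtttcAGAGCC
H1, H2B and H3 (6 members): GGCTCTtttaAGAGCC
H2A (1 member, Hist2h2ac): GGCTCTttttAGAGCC
H4 (7 members): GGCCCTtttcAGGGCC
H4 (2 members, Hist1h4i and Hist2h4): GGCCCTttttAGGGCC
H4 (2 members, Hist1h4b and Hist1h4j): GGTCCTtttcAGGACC
The stem separated H4 from the other 4 classes. All 11 H4 members with a match had GGCCCT or GGTCCT on the 5′ side, and all 33 matched members of the other classes had GGCTCT. The loop did not separate them, since TTTC was the commonest loop on both sides.

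The promoters also differed by class. RefSeq promoters (GRCm38.p6, 250 bases before to 50 after the start) were matched for 62 members and searched on both strands for 4 motifs. CCAAT was present in all 6 H1, 18 H2A, 16 H2B and 10 H3 promoters but in 3 of 12 H4 promoters (25%), against 37.4% of all 32851 promoters. The octamer ATTTGCAT was present in 7 of 18 H2A and 6 of 16 H2B promoters, in none of the H1, H3 and H4 promoters, and in 1.74% of all promoters. AAACACA, the letters of the H1 box, was present in 5 of 6 H1 promoters, in 2 H2A and 2 H2B promoters, in none for H3 and H4, and in 7.18% of all. TATAAA was present in 35 of the 62 (56.5%) and in 13.6% of all, and was found in every class. A match is a description of sequence, not of binding.

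The 130 bases before the RefSeq start show these arrangements for 2 H1 genes, an H2B gene, an H3 gene and an H4 gene. Capitals mark matches to the 4 motifs, and no match overlaps another in these stretches.
Hist1h1c (chr13:23738677-23738806, plus strand): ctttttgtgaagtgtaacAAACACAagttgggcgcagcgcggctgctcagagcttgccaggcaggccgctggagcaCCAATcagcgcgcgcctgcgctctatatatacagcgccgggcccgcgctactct
Hist1h1e (chr13:23622559-23622688, minus strand): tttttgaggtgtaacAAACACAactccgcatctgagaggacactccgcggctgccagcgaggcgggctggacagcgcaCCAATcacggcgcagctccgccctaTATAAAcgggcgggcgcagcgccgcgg
Hist1h2bg (chr13:23571270-23571399, plus strand): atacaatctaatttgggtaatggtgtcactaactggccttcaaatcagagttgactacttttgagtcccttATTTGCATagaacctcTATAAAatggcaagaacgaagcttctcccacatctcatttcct
Hist1h3h (chr13:21717498-21717627, plus strand): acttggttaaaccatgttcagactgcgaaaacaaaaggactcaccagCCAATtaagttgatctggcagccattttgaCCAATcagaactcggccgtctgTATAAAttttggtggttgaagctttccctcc
Hist1h4k (chr13:21750554-21750683, minus strand): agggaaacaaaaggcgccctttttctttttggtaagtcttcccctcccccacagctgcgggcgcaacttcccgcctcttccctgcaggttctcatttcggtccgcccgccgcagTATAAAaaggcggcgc
The H1 promoters carry AAACACA upstream of CCAAT in the same orientation. The H2B promoter has the octamer just upstream of TATAAA, and the H4 promoter has TATAAA without CCAAT in this window.

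Most of these genes were detected in the cortex. A TPM (the share of all transcripts, corrected for transcript length and put on a scale with the same total in each library) of at least 1 in both mice was taken as expressed. By this rule 56 of 67 members (83.6%) were expressed, beside 58.6% of all protein-coding genes, and 29 reached a TPM of 10 in both mice. A further 4 passed in 1 mouse only and 7 in neither. The median member had a TPM of 6.77 in replicate 1 and 9.40 in replicate 2, against 3.49 and 3.82 for all protein-coding genes. As a sum the members reached a TPM of 1266 in replicate 1 and 1513 in replicate 2 (mean 1390 ± 175, SD, n = 2). This was 0.307% of the TPM of nuclear protein-coding genes, of which the members make up 0.304% by number. The reads behind it were few: 13300 and 15103 expected counts, or 0.0445% and 0.0540% of library totals of 29915463 and 27988085.

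The sum rested on few genes, and on H4 above all. The 3 most abundant members held 30.9% of it, 7 members were enough to pass 50%, and the 10 most abundant held 60.2%. Of these 10, 6 encode H4. Class sums were 692.22 and 786.94 for H4 (53.2% of the total), 220.43 and 262.86 for H2B (17.4%), 179.00 and 227.58 for H2A (14.6%), 119.90 and 155.56 for H3 (9.91%), and 54.78 and 80.35 for H1 (4.86%), in replicates 1 and 2. The order of the classes was the same in both mice. All 13 H4 genes were expressed, against 5 of 6 for H1, 12 of 18 for H2A, 16 of 18 for H2B and 10 of 12 for H3. By cluster, Hist1 held 80.4% of the sum, Hist2 14.2%, Hist3 5.04% and Hist4h4 0.312%.

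**Figure D1:**
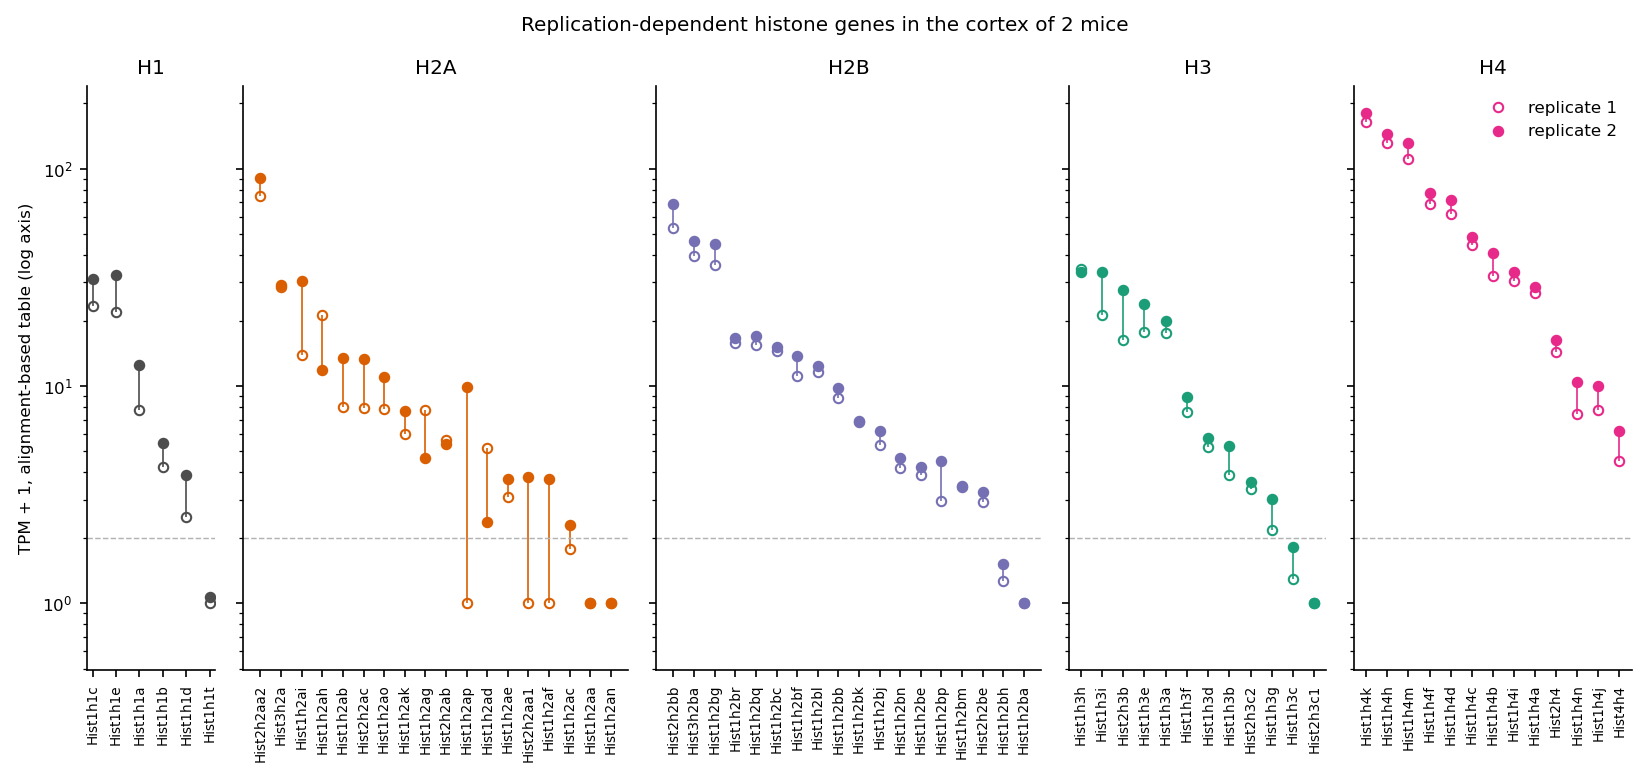
TPM + 1 of each of the 67 members in the alignment-based table on a log axis, grouped by histone class and ordered by mean TPM. Open circles are replicate 1, filled circles replicate 2, vertical lines join the mice and the dashed line marks a TPM of 1. H4 holds the 3 highest members, and the widest gaps between the mice lie among H2A genes.

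H4, which forms the histone core with H3, had the highest members. Hist1h4k (ENSMUSG00000064288.4, chromosome 13, 21750194 to 21750505, minus strand) had a TPM of 162.61 in replicate 1 and 180.47 in replicate 2, from 681.84 and 706.79 expected counts. Its model is a single exon of 312 bases that holds the coding sequence alone. Hist1h4h followed at 131.06 and 143.86 and Hist1h4m at 110.14 and 129.97. These 3 lay above every other member in both mice. Hist1h4f (67.81 and 76.42) and Hist1h4d (60.91 and 70.49) came next, and Hist1h4c reached 43.34 and 47.27. Hist1h4d had the most reads of any member, 1245.84 and 1346.58, on a model of 1138 bases. Hist4h4, the lone gene of its cluster (chromosome 6, 136801553 to 136804415, minus strand), was the lowest H4 gene at 3.49 and 5.18.

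Among the H2A genes, Hist2h2aa2 (ENSMUSG00000063954.7, chromosome 3, 96239749 to 96240276, minus strand) led at a TPM of 74.27 and 89.88 and held 40.4% of the class sum. Its 528-base transcript is identical to a stretch of that of Hist2h2aa1, which was listed at 0 and 2.79, so the split between these genes is uncertain. Their summed counts were 627.26 and 733.92. Stretches of both transcripts are also shared with genes outside the set, so this sum is uncertain too. Hist3h2a, in the Hist3 cluster, followed at 27.51 and 28.28. It overlaps the protein-coding gene Trim17 on the same strand, which had 177.43 and 165.24 counts. Hist1h2ai, at 12.87 and 29.28, was above Hist3h2a in replicate 2 only, and Hist1h2ah had 20.13 and 10.86.

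Among the H2B genes, partners of H2A in the octamer, Hist2h2bb (ENSMUSG00000105827.1, chromosome 3, 96269752 to 96270132) led at 52.47 and 67.88. Its model is the coding sequence alone, and it lies within the long non-coding gene Gm42743 on the same strand, which had 45.72 and 48.05 counts. Hist3h2ba, the leading Hist3 gene (chromosome 11, 58948920 to 58949533), had 38.73 and 45.67, and Hist1h2bg had 35.23 and 44.00. These 3 stood above the other H2B genes, of which the next had a mean TPM of 15.2. Their order among themselves was the same in both mice.

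H3, whose tail carries many regulatory modifications, had no member in the top 10. Hist1h3h (ENSMUSG00000101355.1, chromosome 13, 21717659 to 21718069) led with 33.42 and 32.33, followed by Hist1h3i with 20.27 and 32.35. The next, Hist2h3b, had 15.29 and 26.78. In replicate 2 Hist1h3h and Hist1h3i could not be ordered.

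Among the linker histones, Hist1h1c (ENSMUSG00000036181.2, chromosome 13, 23738808 to 23740367) had a TPM of 22.37 and 30.11 and Hist1h1e 20.96 and 31.28. Their order reversed between the mice. Hist1h1a had 6.73 and 11.52, Hist1h1b 3.23 and 4.48, and Hist1h1d 1.49 and 2.89. Hist1h1d had 215.3 and 389.66 counts, more than Hist1h1a, but its model is 7425 bases long and 4884 of them lie after the stem-loop.

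The testis-type members were at or near 0. Hist1h1t, the testis H1, had 0 counts in replicate 1 and 1 in replicate 2. Hist1h2aa and Hist1h2ba, the testis H2A and H2B, had 0 counts in both mice, as did a further H2A gene, Hist1h2an. Hist2h3c1 had 0 and 0.06. By counting error alone, a count of 0 allows up to 3 counts. This is no bound where reads are shared with other genes. The posterior SD was 2.85 and 2.48 counts for Hist1h2an and 5.18 and 8.26 for Hist2h3c1. The 4 testis markers Prm1, Prm2, Tnp1 and Tnp2 were also at 0 in both mice.

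**Figure D2:**
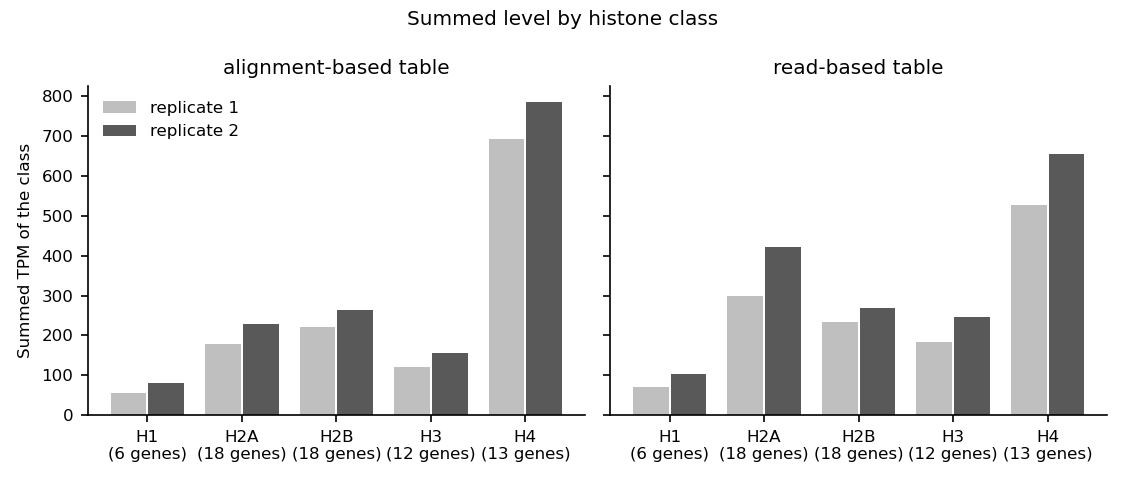
Summed TPM of each histone class in replicate 1 (light bars) and replicate 2 (dark bars), in the alignment-based table (left) and the read-based table (right). H4 is highest in both tables, at 692.22 and 786.94 on the left, and H2A is above H2B only on the right.

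How many reads could be placed on 1 gene differed widely among the members. Uniqueness was measured as the share of a member's 100-base windows found in no transcript of another gene. The median was 62.9%, 26 members were below 50%, 7 were at 100% and 4 (Hist2h2aa2, Hist1h2bq, Hist1h2br and Hist2h3c1) were at 0%. Linking genes that share at least 50% of windows gave 7 groups holding 31 members. The groups are 10 H2A genes (Hist1h2ab, ad, ae, af, ag, ah, ai, an, ao and ap), 5 H2B genes (bj, bk, bp, bq and br), 4 H3 genes (b, d, h and i), 5 H4 genes (a, b, h, j and k), the pair Hist1h4m and Hist1h4n, the pair Hist2h2aa1 and Hist2h2aa2, and Hist2h3b with Hist2h3c1 and Hist2h3c2. Hist1h2bq and Hist1h2br have identical 381-base transcripts and were both given a TPM of 14.47 on them in replicate 1. The deposited posterior SD of their gene counts was 58.9% and 50.9% of the count there. For the abundant H4 genes it was smaller, 5.03% for Hist1h4k and 0.195% for Hist1h4d in replicate 1. Over all members the posterior SD exceeded the square root of the count, the size of counting error, in 27 members in replicate 1 and 25 in replicate 2. The same share over all protein-coding genes was not computed.

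**Figure D3:**
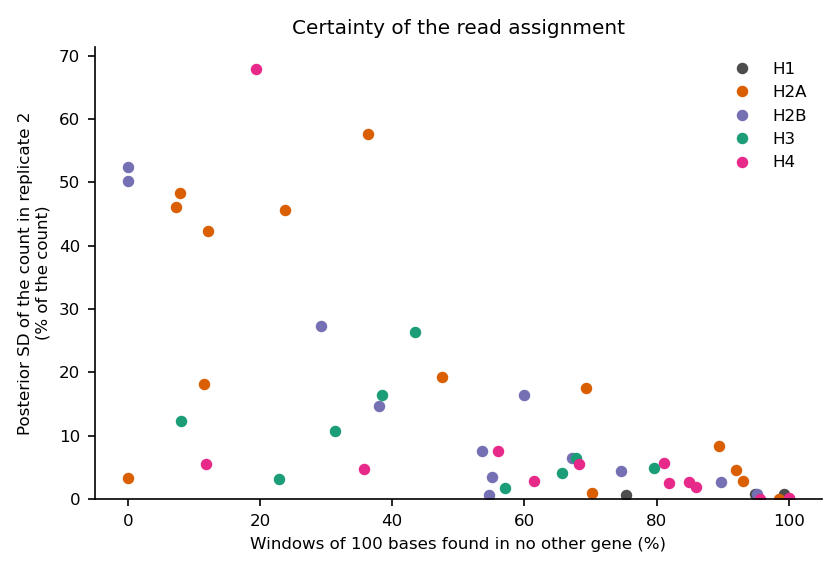
Deposited posterior SD of the count in replicate 2, as a percent of the count, against the percent of 100-base windows found in no other gene, for the 54 members with a mean count of at least 20, coloured by class. Members above 40% uncertainty all have under 40% unique windows, and Hist1h4n is highest at 68.0%.

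The mice differed little in most members, but in the same direction. For each gene the log2 ratio of replicate 2 over replicate 1 was computed on expected counts after TMM scaling (a library-size correction), adding a prior count of 0.5. Of 54 members with a mean count of at least 20, 46 (85.2%) were higher in replicate 2, against 45.9% of 13807 protein-coding genes with that count. The median was 0.18 for the members (0.185 with the count of 0 of Hist1h2ap set to 3) and -0.02 for the protein-coding genes. The summed counts of all members gave a ratio of 0.22, with a 95% counting interval of 0.18 to 0.25. Among other protein-coding genes the share higher in replicate 2 was 40.8% for 969 with a model under 1000 bases, 42.7% for 335 with 1 exon, and 53.9% for 8587 with a mean count of 20 to 1000. These are descriptions of 2 libraries. Whether the shift lies in the mice, the dissections or the libraries cannot be told apart, nor can fewer cells of a type from less RNA per cell in a bulk sample.

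The H1 genes had the largest ratio of any class sum, 0.52 (interval 0.43 to 0.61), from 1740 counts in replicate 1 and 2442 in replicate 2. Leaving out any 1 of its 5 members with enough reads kept it between 0.46 and 0.61. Hist1h1d was at 215.3 and 389.66 counts, a ratio of 0.89 (0.65 to 1.14). Hist1h1a was at 85 and 136 counts (0.71, 0.31 to 1.12) and Hist1h1e at 755.35 and 1052.92 (0.51, 0.38 to 0.65). Hist1h1c had a ratio of 0.36 (0.21 to 0.52), and Hist1h1b, at 41 and 53 counts, had 0.40 with an interval of -0.21 to 1.03 that includes 0. Most windows of these genes were unique, from 75.3% for Hist1h1e to 100% for Hist1h1a and Hist1h1b. Hist1h1e overlaps Hist1h2be and Gm11398 on the same strand.

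Class ratios of the other histones were smaller: 0.30 for H3 (0.19 to 0.42), 0.17 for H2A (0.09 to 0.25), 0.17 for H2B (0.08 to 0.26) and 0.13 for H4 (0.08 to 0.18). All 13 H4 genes were nevertheless higher in replicate 2, with ratios from 0.02 to 0.50. Their counting intervals excluded 0 only for Hist1h4m, Hist1h4d and Hist4h4. Differences between the classes were not tested. The count was 8 of 9 for H3, 11 of 13 for H2B and 9 of 14 for H2A. By read-based counts of the same members it was 11 of 13 for H4 and 7 of 13 for H2B. For H3 and H2A it was again 8 of 9 and 9 of 14. Members of copy groups share reads, so the genes counted here are not independent. The Hist3 sum showed no such difference, at 0.03 (-0.07 to 0.14). Of 12 members with at least 90% unique windows and enough reads, 11 were higher in replicate 2, with a median of 0.38 and a range of -0.14 to 0.89.

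The authors' tables also give an interval for each TPM, whose level is not stated there. For 10 of the 54 members the intervals of the mice did not overlap with replicate 2 higher, beside 7.28% of protein-coding genes, and for 0 with replicate 2 lower, beside 4.08%. The 10 were Hist1h1a, Hist1h1c, Hist1h1d and Hist1h1e, the H4 genes Hist1h4d and Hist4h4, the H3 genes Hist1h3e and Hist2h3b, the H2A gene Hist2h2ac and the H2B gene Hist2h2bb. For Hist1h1e the intervals were 18.8 to 21.8 and 28.3 to 32.0, and for Hist1h1d 1.25 to 1.64 and 2.51 to 3.07. TPM itself ran slightly higher in replicate 2, by a median log2 of 0.06 over these protein-coding genes.

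A 2-fold difference (a log2 ratio over 1 in size) was seen for 3 of the 54 members, beside 0.84% of protein-coding genes (0.449% higher and 0.391% lower in replicate 2). All 3 were H2A genes of the group of 10 near-identical copies. Hist1h2ai was at 74.52 and 158.29 counts, a ratio of 1.12 (0.70 to 1.53). Hist1h2ad went the other way, at 39.06 and 11.86 counts, a ratio of -1.64 (-2.73 to -0.70). Hist1h2ap was at 0 and 62.95 counts. Its fold is not bounded by counting error, since the posterior SD in replicate 1 was 16.6 counts, and the read-based table gave it 13.6 and 60.8 counts, a log2 ratio of 2.11. The deposited TPM intervals of the mice overlapped for each: 3.53 to 20.3 and 14.6 to 36.1 for Hist1h2ai, 2.08 to 6.72 and 0.22 to 3.35 for Hist1h2ad, and 1.3e-05 to 7.34 and 1.29 to 17.3 for Hist1h2ap. Summed over the 10 copies, the counts were 413.37 and 521.28, a ratio of 0.37 (0.18 to 0.56). With each copy group summed to 1 unit, 35 units had enough reads, 33 were higher in replicate 2, the median was 0.20, and none passed a 2-fold difference. These sums cover members only and leave out reads split with other genes. Hist2h2aa2 and Hist2h3b had 0% of windows shared among members only, and Hist1h2ai 1.70%. Non-members sharing windows with H2A members include Gm20634 (247.04 and 199.01 counts), H2afx (593.4 and 555.29) and Hist1h2al (68.64 and 84.98). Gm20634 also shares windows with Hist2h3b. The part of such splits in the ratios was not tested.

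**Figure D4:**
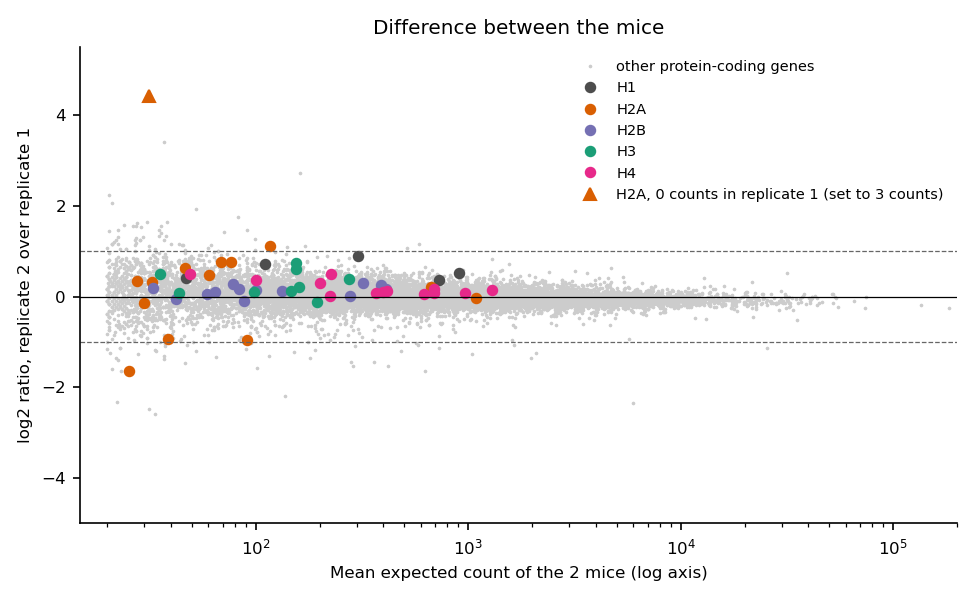
Log2 ratio of replicate 2 over replicate 1 against the mean expected count (log axis) for the 54 members, coloured by class, and other protein-coding genes (grey). Dashed lines mark a 2-fold difference and the triangle is Hist1h2ap with its count of 0 in replicate 1 set to 3, which is no bound on its ratio. Most members lie above 0, and those past a dashed line are H2A genes with mean counts from 25.5 to 116.

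The second quantification, made directly from the reads, gave different levels for many single members. Its summed TPM was 1312 and 1698, near that of the alignment-based table. Across the 67 members the mean TPM of the tables had a Spearman correlation of 0.40, while the mice within the alignment-based table had one of 0.96. Both pairs of values come from the same libraries or gene models and are given as descriptions. Of the 56 expressed members, 14 were lower by over 1 on the log2(TPM + 1) scale in the read-based table, beside 0.357% of expressed protein-coding genes, and 13 were higher, beside 8.01%. The median difference was 0.18 for members and 0.58 for protein-coding genes.

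Of the 14 members that were lower in the read-based table, 8 were H4 genes, 3 H2A and 3 H2B. Hist1h4k had 4.00 and 7.01 read-based counts where the alignment-based table gave 681.84 and 706.79. Hist1h4d had 14 and 34 against 1245.84 and 1346.58, and all of its windows are unique. Hist1h4f had 2.00 and 12.1 against 389.81 and 410.29. The other 2 of the 5 largest falls were Hist2h2aa2 and Hist1h2ah, listed at 0 read-based counts in both mice. Hist1h4h kept most of its counts, 815.49 and 903.18 read-based against 957.22 and 981.34 alignment-based. Its mean TPM was 392 in the read-based and 137 in the alignment-based table, and it was the highest member in the former.

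Among members with a mean alignment-based TPM of at least 1, the largest rises were Hist2h2aa1 (0 and 24.96 counts against 502.46 and 666.13 read-based), Hist1h2ad (39.06 and 11.86 against 197.18 and 197.01), Hist1h3b, Hist1h2ae and Hist1h2be. Hist2h2aa1 rose where its identical partner Hist2h2aa2 fell, and their summed read-based TPM was 132.66 and 185.79. For Hist1h2ad, which was lower in replicate 2 above, the read-based counts of the mice were nearly equal. Hist1h2ba, at 0 in the alignment-based table, had 24.0 read-based counts in replicate 1 and 0 in replicate 2, a difference of 3.17 on the log2(TPM + 1) scale.

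The deposited effective lengths (the number of positions a read can start from) differed between the tables most, in proportion, for short transcripts. The alignment-based table took 99 bases off each transcript, and the read-based table a median of 344 and 340 off transcripts over 2000 bases. For the 312 bases of Hist1h4k this left 213 bases in the first table and 69.4 and 67.1 in the second. Over expressed members with a stem-loop, the length from model start to the end of the stem-loop was 358 to 424 bases in 11 H4 genes, 431 to 645 in 9 H2B, 449 to 553 in 8 H2A, 467 to 896 in 6 H3 and 720 to 2541 in 3 H1 genes. For these same members the median log2(TPM + 1) difference of the read-based from the alignment-based table was -1.80 for H4, 1.22 for H2B, 0.36 for H2A, 0.77 for H3 and 0.24 for H1. Over all 56 expressed members it was -1.80, -0.03, 0.40, 0.76 and 0.66 in the same order. Across those 37 members, length to the stem-loop and the difference had a Spearman correlation of 0.64 and a Pearson correlation of 0.21, with class and sequence shared among the points. The part of this length in the difference between the tables was not tested.

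**Figure D5:**
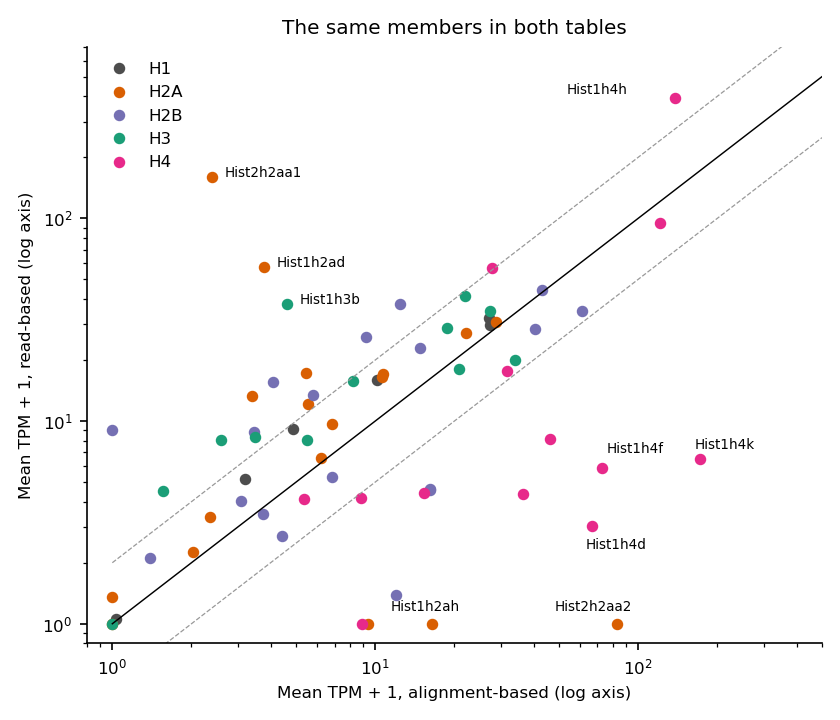
Mean TPM + 1 of each member in the read-based table against the alignment-based table (log axes), coloured by class. The solid line marks equal values and the dashed lines a 2-fold difference. A group of H4 genes lies far below the line, while Hist2h2aa1, Hist1h2ad and Hist1h3b lie far above.

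The class make-up depended on the table. H4 led in both, at 53.2% of the summed alignment-based TPM and 39.3% of the summed read-based TPM. H2A rose from 14.6% to 24.0%, H3 from 9.91% to 14.3% and H1 from 4.86% to 5.79%, while H2B was at 17.4% and 16.7%. The direction between the mice was the same for the sums: read-based counts of 6948 and 8442 gave a ratio of 0.27, and the H1 sum a ratio of 0.52 in both tables. Of 45 members with enough read-based counts, 38 were higher in replicate 2. Their median read-based ratio was 0.34, beside -0.03 for 14453 protein-coding genes. The share of these genes higher in replicate 2 was not computed.

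The end of the annotated model also varied. In 21 members the model ends within 60 bases after the stem-loop, and these held 39.8% of the summed TPM. In 23 it runs further, with 26.9%, the 13 coding-only models held 26.1%, and the other 10 held 7.16%. The read-based over alignment-based TPM was 1.66, 0.75, 0.40 and 1.66 in these groups. Most members, 65, have 1 exon in their leading transcript. Hist1h2bc and Hist1h2be have 2 there. Hist1h2be had its expression on different transcripts in the mice: the first spliced transcript took 62.8% of the gene's TPM in replicate 1 and 12.7% in replicate 2, the second 0% and 61.1%, and an unspliced one 37.3% and 26.2%, from 129.18 and 136.69 counts in all. The read-based table placed 369.48 and 461.52 counts on the first transcript and almost none on the second in both mice. The short single-exon transcripts led in Hist1h2bp, Hist1h2bq and Hist1h2br, at 98.0% to 100% of the gene's TPM.

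Many H2A and H2B genes stand head to head around a shared promoter region. With at most 500 bases between starts there were 12 such pairs, all of 1 H2A and 1 H2B gene, holding 24 members. In 1 pair, Hist1h2ba and Hist1h2aa, both genes were at 0. Mean TPM lay within 2-fold on the log2(TPM + 1) scale in 4 of the other 11. Hist1h2ag and Hist1h2bj, 270 bases apart, had 5.22 and 4.78. Hist1h2ae and Hist1h2bg, 176 bases apart around the octamer shown above, had 2.41 and 39.6. These values are alignment-based. The read-based means were 5.59 and 12.5 for Hist1h2ag and Hist1h2bj, and 12.2 and 27.4 for Hist1h2ae and Hist1h2bg. The contrast between these pairs was therefore not seen in the read-based table. Pairs with an H2A gene of the copy group above inherit its uncertain split, and 7 members overlap another gene on the same strand and 21 one on the opposite strand. The pseudogene Hist1h2al, a copy outside the set, had 68.64 and 84.98 counts.

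The genes listed as replication-independent variants, H2afx with its stem-loop among them, were all expressed. The 11 genes of this list had a summed TPM of 484.69 and 502.35, 0.357 of the members' sum, and 0.546 of it in the read-based table. H3f3a (125.23 and 125.96) and H3f3b (98.94 and 112.20), which encode H3.3, were each above every replication-dependent H3 gene, and their levels were followed by H2afz, for H2A.Z, at 77.35 and 70.42. H1f0, the H1 of resting cells, had 36.88 and 38.43, above each replication-dependent H1 gene. Of the 11, 3 were higher in replicate 2 and the median ratio was -0.05, against 0.18 for the members and -0.02 for protein-coding genes. The difference between these lists was not tested.

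The machinery of histone mRNA was present. Of 15 genes for transcription and 3′ end processing 14 were expressed, with a median ratio of -0.08, 6 of 14 higher in replicate 2 and none past a 2-fold difference. Srrt, a cap-complex partner, was highest at 78.16 and 101.38, followed by mean TPM by the scaffold Sympk at 54.37 and 56.94 and the cleavage factor gene Cstf2 at 50.98 and 59.45, whose order differed between the mice. Slbp, which binds the stem-loop, had 10.18 and 9.92, and Npat, the S-phase coactivator, 8.28 and 8.80. Lsm11 of the U7 particle had 15.18 and 11.23, and the zinc finger gene Zfp473 was not expressed, at 7 and 11 counts.

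Histone chaperones were mostly expressed, 11 of 14, with a median ratio of 0.07, 8 of 12 with enough reads higher in replicate 2 and none past a 2-fold difference. By mean TPM the most abundant were Atrx (72.89 and 86.54), which deposits H3.3 with Daxx, Rbbp4 (51.83 and 50.98), Ssrp1 (39.75 and 48.06) and Hira (39.11 and 31.75), with Cabin1 (29.41 and 37.77) above Hira in replicate 2. The 3 below the threshold were Chaf1a (0.64 and 0.96), Chaf1b (0.62 and 0.37) and Asf1b (0.19 and 0.21). By read-based TPM, Chaf1a (1.18 and 2.54) and Chaf1b (2.21 and 1.23) passed it, and Asf1b (0.22 and 0.19) did not.

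Genes of DNA replication and division were low. Of 20 listed, 10 were expressed, beside 58.6% of all protein-coding genes. Their summed TPM was 56.13 and 56.91 over the 20 genes, against 1266 and 1513 over the 67 histone genes. The median TPM was 1.12 and 1.395, against 6.77 and 9.40 for the histone genes and 3.49 and 3.82 for all protein-coding genes. The highest were Pcna, the replication clamp (20.18 and 18.11), Ccne1 (7.05 and 7.87), Mcm7 (5.62 and 6.74) and E2f1 (4.92 and 4.51). The markers of cycling cells Mki67 (53 and 37 counts), Top2a (32 and 26) and Cdk1 (5 and 5) were all below an alignment-based TPM of 1. By read-based TPM, Top2a had 1.02 and 1.44, while Mki67 and Cdk1 were below 1 in both mice. The read-based sum over the 20 genes was 107.4 and 114.1, against 1312 and 1698 over the histone genes. Of 15 with enough reads, 10 were higher in replicate 2, with a median of 0.04 and none past a 2-fold difference. The 6 oligodendrocyte precursor markers were expressed, with a summed TPM of 66.85 and 74.13, 4 of 6 higher in replicate 2 and a median ratio of 0.10. Pdgfra, their defining receptor, had 15.30 and 18.76, and Gpr17, of cells about to differentiate, 19.96 and 17.66. The 6 cortex markers were expressed, led by Slc1a2 and Slc17a7 at 843.09 and 598.86 in replicate 1, with 1 of 6 higher in replicate 2 and a median of -0.17. The 3 erythroid markers were present, summing to 376.38 and 377.91, and none was higher in replicate 2. The part of these cell types in the members' levels was not tested.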

How the data were processed

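Members, lists and motifs were chosen with earlier results of these data known. The genes named are the 10 members highest by mean TPM, the leading member of each class and cluster, members past a 2-fold difference, members at 0 in both mice, the 5 with the largest difference between tables each way, multi-transcript members, testis-type members and up to 4 examples per list. Others that illustrate a count were chosen after their values were seen.

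The authors deposited an alignment-based gene and transcript table and a read-based transcript table for each mouse. Per the file headers, these hold expected or estimated counts (not normalized), TPM, and, for transcripts, the percent of a gene's TPM. The genome is mm10 per the labels. Transcript and gene identifiers are those of GENCODE M21. The aligner and quantifiers: not given in the sources used here.

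Read-based values were summed per gene. Expected counts were scaled by TMM (edgeR 4.0.16, R 4.3.3; expected counts rounded), and DESeq2 1.42.0 size factors, library totals and spike-in totals were alternatives. Counting intervals are exact binomial at 95% and cover counting error only, not the splitting of shared reads. Copies were compared with edlib 1.3.9.post1. Other steps used Python 3.11.15, pandas 2.3.3 and scipy 1.17.1. On simulated data for replicate 2 against replicate 1 (16435 genes), 100% of kept genes among 200 changed 4-fold were recovered, and 0.246% of unchanged genes passed. The changed genes all had a mean count of at least 20, and the variation between mice was an assumed value, not one estimated from these data. Both rates follow from these settings and do not measure the error in the real libraries. The simulated counts were drawn for each gene separately, without shared reads, so these rates do not cover members of the copy groups.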

Additional observations from a re-analysis of the deposited data

How the results depend on the processing

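The number of expressed members, 56, was 39 to 60 under the alternatives run. The lowest was at a TPM threshold of 5 and the highest in replicate 2 alone. The share of protein-coding genes expressed under these alternatives was not computed, so these counts are not set against it. The summed TPM was 3070 when rescaled to nuclear protein-coding genes. The count of 3 members past a 2-fold difference was 1 of 41 at a minimum mean count of 50 (0.338% of protein-coding genes) and 1 of 31 at 100 (0.247%), 7 of 67 with no minimum (8.01%, near the members' share), 10 of 54 with spike-in totals (2.30%) and 5 of 45 in the read-based table (1.11%). In alternatives chosen after seeing the data, it was 0 among members with at least 90% unique windows and 0 with near-identical copies summed. The median ratio of 0.18 kept its sign under every alternative run. It was 0.58 with spike-in totals, which moves all genes by 0.40 (protein-coding median 0.38), 0.34 in the read-based table and 0.38 among members with at least 90% unique windows. The cause was not tested. No replicate could be left out of a ratio, since each mouse gave 1 library. No paired analysis was possible because there is 1 group. Depth limits members with few counts, and the splitting of shared reads adds to this in the copy groups. Summing copies does not remove splits with genes outside the set.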
